A study of Apera spica-venti with 32 samples.

Results

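Of 39590 open reading frames counted in leaves of the grass weed Apera spica-venti (silky windgrass), 22 carried a deposited description that names autophagy or a part of vesicle traffic. They were found by words in the descriptions (autophagy, syntaxin, vesicle-associated, vacuolar protein sorting, exocyst, clathrin, coatomer, ras-related protein Rab, ADP-ribosylation factor, reticulon), and 3 belong to autophagy, 6 to endocytosis and vacuolar sorting and 13 to secretion. Descriptions exist for 7967 frames, and the authors gave one only to frames they had listed as differing in at least 1 of 4 comparisons, so the members were chosen by measured values of these same libraries. In the authors' deposited table the smallest adjusted p of a member ranged from 5.107e-08 for a putative clathrin assembly protein to 0.02249 for autophagy-related protein 3, and the table lists values up to 0.04999. Frames beyond that limit have no description, so no member just outside it can be given.

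Autophagy encloses cytoplasm in a double membrane and delivers it to the vacuole for breakdown. Its membrane grows with the help of a pair of ubiquitin-like conjugation systems, one of which joins ATG12 to ATG5 and the other of which joins ATG8 to a membrane lipid. Secretion carries proteins from the endoplasmic reticulum through the Golgi to the cell surface, and endocytosis and vacuolar sorting carry membrane inward and to the vacuole. Coats form the vesicles, small GTPases of the Rab and ARF families direct them, tethers such as the exocyst hold them at the target, and SNARE proteins such as syntaxins fuse them.

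Populations S1 and S2 were susceptible to herbicides, and R1 and R2 were resistant to several of them. Greenhouse plants kept at 21 °C were left without treatment or received 1 spray of pinoxaden, which blocks the enzyme acetyl-CoA carboxylase, at a dose of 45 g active ingredient per ha, with leaf harvest 8 h after the spray. There were 8 groups (each population with and without the spray), each with 4 biological replicates of 3 plants, and the 32 libraries were made from total RNA depleted of ribosomal RNA. No mock spray is described and no harvest time is given for untreated plants, so pinoxaden, its formulation and the act of spraying cannot be told apart, and each class of plants is represented by only 2 populations.

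Library totals ranged from 26213780 to 46062806 counts. The leaf label held: 43 frames of ribulose bisphosphate carboxylase, the photosystems and chlorophyll-binding proteins took between 59.1% and 68.2% of counts in every library. Their mean share was 66.2% in untreated and 64.6% in sprayed susceptible libraries, and 63.4% in untreated and 65.1% in sprayed resistant ones. With TMM, 37 of the 43 fell and 0 rose in susceptible plants, 10 fell in resistant plants, and 11 were lower in untreated resistant than in untreated susceptible plants. With library totals in place of TMM, 19 fell in susceptible plants, 9 fell and 1 rose in resistant plants, and 4 were lower in untreated resistant plants. Between sprayed classes 1 was lower in resistant plants with either scaling. Untreated R1 replicate 1 stood apart, with 59.1% of counts in leaf frames and 0.0206% in 18 frames of dividing cells, where the mean of untreated resistant libraries was 0.0118%. Of the 16 dividing-cell frames that were tested, 5 rose and 2 fell in susceptible plants, 2 rose and 1 fell in resistant plants, and 7 were higher in untreated resistant plants, with 0 called in that comparison once this library was left out. Between sprayed classes 1 was lower in resistant plants. Of 15 tested frames described as viral, retrotransposon, polyprotein or coat proteins, 8 fell in susceptible plants (1 with library totals) and 0 were called in resistant plants. In resistant plants 1 of them was higher and 2 were lower than in susceptible plants when untreated, and 1 was higher and 3 were lower when sprayed. The only frame found by words for phloem and xylem fell in susceptible plants and was not called in the other 3 comparisons. Like the members, these frames were described because the authors had listed them, so nothing is read from the called counts. In susceptible plants 36.7% of described and 11.8% of all tested frames fell, and 42.5% and 13.5% rose. In resistant plants 11.1% and 3.51% fell, and 18% and 5.63% rose. Between untreated classes 4.12% and 1.36% were lower in resistant plants, and 8.73% and 2.76% higher. Between sprayed classes 2.21% and 0.751% were lower, and 4.81% and 1.55% higher. The counts with library totals or without that library were chosen after seeing the data. In bulk leaf, fewer cells of a type and less RNA per cell cannot be told apart, and the part of tissue composition in the results on the members was not tested.

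Levels are given as CPM, the reads of a frame relative to a fixed number of library reads, with depths adjusted by edgeR's TMM factors, and differences as log2 fold changes ± standard error (SE) of a fit to all 32 libraries. A member is said to have risen, fallen or been called when its adjusted p over all 25036 tested frames was under 0.05. For the authors' 4 comparisons, which chose the members and the other described frames, no p is printed and values are a description. In them a call, or its loss without a library, marks only the side of the threshold on which a frame lay. It is not an independent test, since the same values chose the frames. A call in susceptible plants beside no call in resistant plants, or the reverse, is not a test of a difference between the classes. CPM is not divided by length, so levels were not compared between genes.

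After spraying of susceptible plants, 10 of the 21 tested members rose and 6 fell, where 13.5% of all tested frames rose and 11.8% fell. That is 76.2% of the members, where 25.4% of all tested frames and 79.2% of described frames were called. In resistant plants 6 rose and 2 fell, where 5.63% of all tested frames rose and 3.51% fell. The called share was 38.1% of members, and 9.14% of all tested frames and 29.1% of described frames were called. Between classes, 4 members were called in untreated plants, 1 higher and 3 lower in the resistant class (background 4.12%, described frames 12.8%). In sprayed plants 1 was called, lower in the resistant class (background 2.3%, described frames 7.02%). Nothing is read from these shares, since the members were listed for these comparisons. The median log2 fold change of the members was 0.25 in susceptible plants, against −0.01 over all tested and 0.21 over described frames. It was 0.25 in resistant plants, against −0.01 and 0.02. The median depends on the scaling. With library totals in place of TMM, the median over all tested frames moved to 0.30 in the response of susceptible plants, 13 members rose there and 0 fell. Between untreated classes 4 members were then higher and 1 lower in the resistant class.

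**Figure D1:**
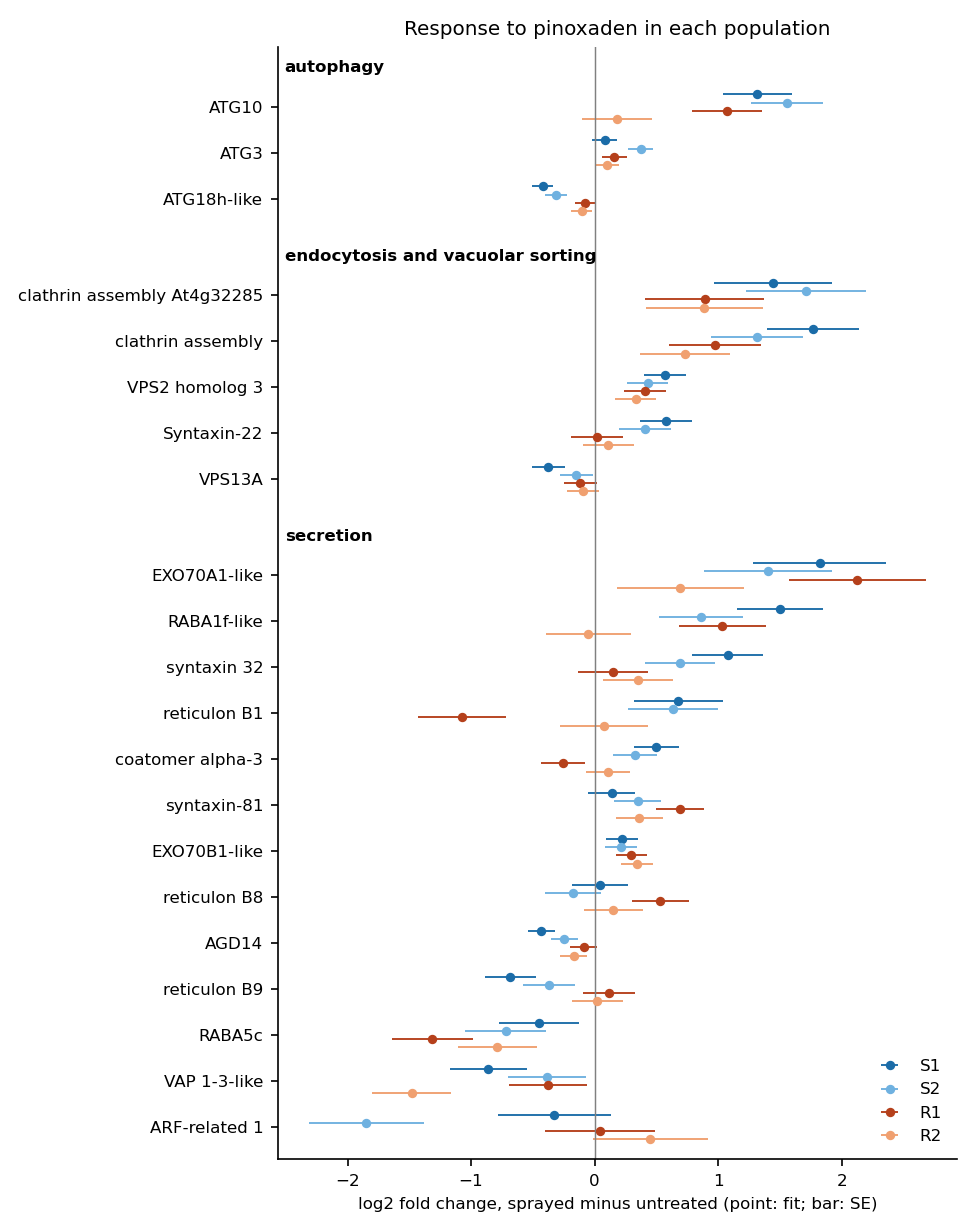
Fitted log2 fold change of each tested member, sprayed minus untreated, in populations S1, S2, R1 and R2 (points), with its standard error (bars), on a linear axis grouped by autophagy, endocytosis and vacuolar sorting, and secretion. Of 21 members, 20 had the same sign in S1 and S2, and 15 had the same sign in all 4 populations, 10 higher and 5 lower after spraying.

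Among the autophagy members, autophagy-related protein 10 (TRINITY_DN7877_c0_g1_i4.p1) rose in both classes, autophagy-related protein 3 (TRINITY_DN6678_c0_g1_i7.p1) rose in susceptible plants, and autophagy-related protein 18h-like (TRINITY_DN3344_c0_g1_i74.p3) fell in susceptible plants. ATG10 is the E2-like enzyme that joins ATG12 to ATG5, ATG3 is the E2-like enzyme that joins ATG8 to phosphatidylethanolamine, and ATG18 proteins bind phosphoinositides on the growing membrane.

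ATG10 stood at 2.30, 2.17, 2.05 and 2.00 CPM in the untreated S1 libraries and at 6.96, 4.19, 5.64 and 4.49 CPM in the sprayed ones. In S2 it stood at 1.09, 0.841, 2.42 and 1.43 CPM untreated and at 3.91, 4.33, 3.79 and 5.04 CPM sprayed. Every sprayed susceptible library lay above every untreated one. The log2 fold change was 1.44 ± 0.20 in susceptible plants, a fold of 2.71. Non-overlap of the 8 sprayed and 8 untreated susceptible libraries was seen in 1 of 21 members (4.76%), against 5.25% of all tested and 17% of described frames.

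In R1, ATG10 stood at 2.06, 2.04, 2.57 and 1.38 CPM untreated and at 5.23, 3.56, 5.28 and 2.87 CPM sprayed, again without overlap. In R2 it stood at 2.30, 1.80, 2.13 and 1.50 CPM untreated and at 3.73, 1.95, 1.36 and 1.79 CPM sprayed, and only sprayed replicate 1 lay above the untreated libraries. The log2 fold change was 1.07 ± 0.28 in R1 and 0.18 ± 0.28 in R2, and 0.63 ± 0.20 over both resistant populations. The call over both was lost without any 1 of 21 of the 32 libraries, with values from 0.44 to 0.67, so it lay close to the threshold. The response of R2 minus that of R1, which the choice of members did not use, was −0.89 ± 0.40 on the log2 scale, with a 95% interval from −1.71 to −0.07 and an adjusted p of 0.832 in edgeR's quasi-likelihood test.

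ATG3 and ATG18h-like moved by far less. ATG3 ranged from 9.25 to 13.6 CPM with a median of 10.7 in untreated susceptible libraries and from 11.7 to 14.1 CPM with a median of 13.1 in sprayed ones. In S2 the 4 sprayed libraries lay above the 4 untreated ones, and in S1 they overlapped. Its change was 0.23 ± 0.07 on the log2 scale in susceptible plants. The call was lost without untreated S1 replicate 1 or untreated S2 replicate 3, at 0.17 and 0.19. In resistant plants its value was 0.13 ± 0.07, not called.

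ATG18h-like ranged from 15.3 to 19.1 CPM with a median of 17.1 in untreated susceptible libraries and from 11.6 to 15.4 CPM with a median of 13.5 in sprayed ones. Within S1 and within S2 the sprayed libraries lay below the untreated ones. Untreated resistant libraries, at 11.5 to 16.0 CPM with a median of 14.4, lay mostly in the range of sprayed susceptible libraries. Spraying changed it by −0.37 ± 0.06 on the log2 scale in susceptible plants, and the value was −0.09 ± 0.06, not called, in resistant plants, and the difference between untreated resistant and untreated susceptible plants was −0.28 ± 0.06. The first and the third of these shared the untreated susceptible libraries. With library totals in place of TMM they shrank to −0.05 and −0.07 and were no longer called. Another frame on the same contig was described only as an unnamed protein product. It fell in both classes, at −0.31 ± 0.07 in susceptible and −0.24 ± 0.07 in resistant plants. A further frame there, with no description and a mean of 0.788 CPM, stood at −0.45 ± 0.20 and 0.02 ± 0.21, neither of them called.

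Ratios of counts within a library do not depend on scaling. The ratio of ATG10 to ATG3 counts had a median of 0.157 in untreated susceptible libraries (0.0769 to 0.262) and 0.329 in sprayed ones (0.299 to 0.593), without overlap. In resistant plants the median was 0.185 untreated (0.113 to 0.221) and 0.240 sprayed (0.120 to 0.448), with overlap. The ratio of ATG3 to ATG18h-like had a median of 0.613 in untreated and 0.994 in sprayed susceptible libraries, and the lowest sprayed value, 0.836, lay above the highest untreated one, 0.832. These ratios use the values that chose the members and carry no test.

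**Figure D2:**
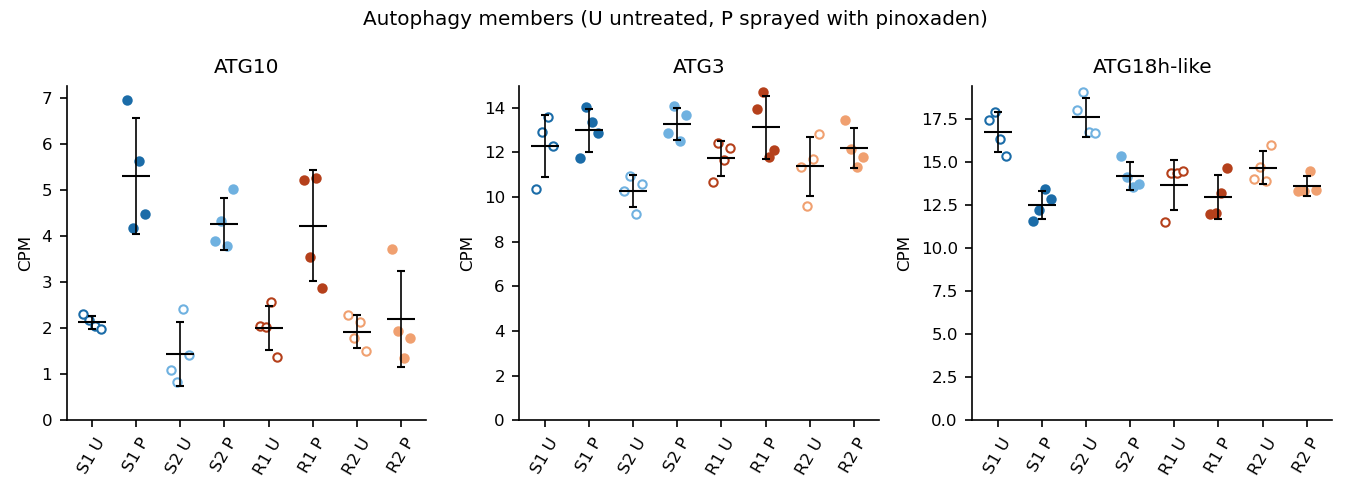
CPM of the 3 autophagy members in each of the 32 libraries (open points untreated, U; filled points sprayed, P), with the mean and SD of the 4 libraries of a group, on axes that start at 0. ATG10 is higher in all sprayed S1, S2 and R1 libraries than in their untreated ones, and the 4 sprayed R2 libraries lie between 1.36 and 3.73 CPM.

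Other frames of the autophagy pathway were found with a list of words outside the member rule. The list held 6 tested frames: a pair described as the kinase ATG1, which starts autophagy, a pair described as the E1-like enzyme ATG7, which activates both ATG8 and ATG12, a phosphatidylinositol 3-kinase and ATG8-interacting protein 1. Of these, 4 fell in susceptible plants and 0 rose, where 11.8% of all tested frames and 36.7% of described frames fell. These frames were described because the authors had listed them, so nothing is read from the count. The falls were −0.60 ± 0.09 for the frame described as ATG1c, −0.34 ± 0.08 for the ATG1a-like frame, −0.28 ± 0.08 for 1 ATG7 frame and −0.25 ± 0.06 for the phosphatidylinositol 3-kinase. ATG8-interacting protein 1 had a value of 0.10 ± 0.28. In resistant plants only the ATG1c frame was called, at −0.28 ± 0.09. With library totals in place of TMM, 1 of the 6 fell in susceptible plants and the 6 values ran from −0.28 to 0.42, so the direction of this group depends on the scaling. Both ATG7 frames lie on 1 contig and are not independent.

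Among the 6 members of endocytosis and vacuolar sorting, 4 rose and 1 fell in susceptible plants, 2 rose in resistant plants, and 1 had too few counts to be tested. All tested frames were called at 25.4% in susceptible and 9.14% in resistant plants, and described frames at 79.2% and 29.1%. As members were listed for these comparisons, nothing is read from the counts. The frames that rose most were a pair described as clathrin assembly proteins, which bind membrane lipids and recruit clathrin to forming vesicles. They were followed by vacuolar protein sorting-associated protein 2 homolog 3 (TRINITY_DN3279_c0_g1_i21.p2), a subunit of the ESCRT-III complex that pinches vesicles into endosomes, and syntaxin-22 (TRINITY_DN893_c0_g4_i1.p1), a SNARE known in Arabidopsis from the vacuolar and prevacuolar membranes.

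The putative clathrin assembly protein (TRINITY_DN10405_c0_g1_i4.p1) stood at 1.27, 1.22, 2.42 and 2.00 CPM in untreated S1 and at 7.47, 3.75, 9.72 and 2.55 CPM in sprayed S1. In S2 it stood at 1.23, 3.48, 1.21 and 1.85 CPM untreated and at 3.37, 6.77, 3.64 and 5.48 CPM sprayed. The S1 groups did not overlap, and in S2 untreated replicate 2 reached into the sprayed range. In susceptible plants the log2 fold change was 1.54 ± 0.26, a fold of 2.91.

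In R1 the same frame stood at 1.51, 2.69, 1.34 and 1.50 CPM untreated and at 3.80, 2.68, 3.69 and 3.63 CPM sprayed. In R2 it stood at 1.85, 2.77, 2.44 and 1.59 CPM untreated and at 4.52, 4.62, 2.33 and 2.95 CPM sprayed. Replicate 2 of untreated R1 was the library that met the sprayed range there, and the R2 groups overlapped. In resistant plants the log2 fold change was 0.85 ± 0.26. The call was lost without any 1 of 11 resistant libraries, with values from 0.78 to 0.89.

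The probable clathrin assembly protein At4g32285 (TRINITY_DN7307_c0_g1_i18.p1), whose description cites an Arabidopsis locus, ranged from 0.224 to 1.03 CPM with a median of 0.307 in untreated susceptible libraries. In sprayed ones it ranged from 0.612 to 1.93 CPM with a median of 1.27. Only untreated S1 replicate 1, at 1.03 CPM, lay in the sprayed range. Its log2 fold change was 1.58 ± 0.34 in susceptible plants and 0.89 ± 0.34, not called, in resistant plants, whose medians were 0.440 CPM untreated and 0.814 CPM sprayed.

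Vacuolar protein sorting-associated protein 2 homolog 3 rose by 0.50 ± 0.12 on the log2 scale in susceptible and by 0.37 ± 0.12 in resistant plants. In S1 it stood at 2.99, 3.01, 3.29 and 2.82 CPM untreated and at 4.19, 4.32, 5.54 and 3.92 CPM sprayed. Sprayed and untreated libraries did not overlap within S1, R1 or R2, and overlapped within S2. The call in resistant plants was lost without any 1 of 21 libraries, with values from 0.31 to 0.39.

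Syntaxin-22 had a median of 1.25 CPM in untreated and 1.86 CPM in sprayed susceptible libraries, and rose there by 0.49 ± 0.15. In resistant plants its value was 0.07 ± 0.15, not called. Putative vacuolar protein sorting-associated protein 13A (TRINITY_DN5157_c0_g1_i53.p2), of a family that moves lipids between membranes in yeast and human cells, fell by 0.26 ± 0.09 in susceptible plants. This call was lost without any 1 of 5 susceptible libraries, at −0.25 to −0.21, and with library totals the value turned to 0.0492. The resistant value was −0.10 ± 0.09, not called.

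Vacuolar protein sorting-associated protein 2 homolog 2-like (TRINITY_DN149067_c0_g1_i1.p1), another ESCRT-III frame, was too rare for the fit. It had 6 counts over the 8 untreated susceptible libraries and 46 over the 8 sprayed ones, a ratio of 7.34 after scaling to depth, with a 95% interval for counting error only from 3.13 to 21. In resistant plants it had 79 counts untreated and 23 sprayed, a ratio of 0.28 with an interval from 0.168 to 0.451. Leaving out 1 library at a time, added after seeing the data, gave the susceptible ratio a range from 4.58 (1.83 to 13.6) without sprayed S1 replicate 4 to 19.6 (5.12 to 167) without untreated S1 replicate 3. The resistant ratio was 0.483 (0.276 to 0.826) without untreated R1 replicate 1. Counting intervals leave out the spread between libraries, which was wide, since untreated R1 replicate 1 reached 1.13 CPM and the other untreated resistant libraries lay between 0.0385 and 0.278 CPM. Untreated resistant over untreated susceptible libraries gave a ratio of 13.3 (5.83 to 37.2) with that library and 7.7 (3.24 to 22.2) without it. The authors' deposited table lists this frame at a log2 fold change of 3.64 in that comparison and of 2.79 for sprayed against untreated susceptible plants.

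Of the 13 secretion members, 4 rose and 4 fell in susceptible plants, and 3 rose and 2 fell in resistant plants. The called shares in susceptible and resistant plants were 61.5% and 38.5%. They were 25.4% and 9.14% over all tested frames and 79.2% and 29.1% over described frames, and nothing is read from them. The frames that rose were EXO70 tethers, SNAREs, a Rab GTPase and a coat subunit, and those that fell were an ARF-related GTPase, a regulator of ARF GTPases, a Rab GTPase, a reticulon and a vesicle-associated protein of the endoplasmic reticulum.

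The exocyst tethers secretory vesicles to the plasma membrane, and EXO70 is its subunit that binds the membrane. Exocyst complex component EXO70A1-like (TRINITY_DN11938_c0_g1_i3.p1) stood at 0.371, 0.320, 0.302 and 0.125 CPM in untreated S1 and at 0.257, 1.61, 0.948 and 1.15 CPM in sprayed S1. In S2 it stood at 0.356, 0.585, 0.572 and 0.443 CPM untreated and at 1.26, 0.680, 2.25 and 0.981 CPM sprayed. Sprayed libraries were higher apart from S1 replicate 1, and the S2 groups did not overlap.

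In R1, EXO70A1-like stood at 0.261, 0.385, 0.119 and 0.0627 CPM untreated and at 0.912, 0.746, 0.701 and 1.24 CPM sprayed. In R2 it stood at 0.675, 0.581, 0.325 and 0.460 CPM untreated and at 0.871, 0.584, 0.244 and 1.61 CPM sprayed. The R1 groups did not overlap and the R2 groups did. The log2 fold change was 1.61 ± 0.37 in susceptible and 1.41 ± 0.38 in resistant plants. The latter lost its call without sprayed R2 replicate 4, at 1.14.

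Exocyst complex component EXO70B1-like (TRINITY_DN12878_c0_g2_i1.p1), whose Arabidopsis namesake has also been tied to autophagy, rose by 0.32 ± 0.09 in resistant plants and had a value of 0.22 ± 0.09, not called, in susceptible plants. In R2 it stood at 14.7, 14.3, 14.3 and 13.2 CPM untreated and at 19.9, 18.3, 16.1 and 17.4 CPM sprayed, without overlap. The R1 groups overlapped, at 9.18 to 16.4 CPM untreated and 14.3 to 17.1 CPM sprayed. In untreated plants it was lower in the resistant class by −0.31 ± 0.09, with medians of 13.7 and 17.1 CPM. This difference and the response of resistant plants shared the untreated resistant libraries. The response call was lost without sprayed R1 replicate 2 or sprayed R2 replicate 1, both at 0.29. The class call was lost without any 1 of 23 libraries, at −0.33 to −0.24, and with library totals the value was −0.10, not called.

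Rab GTPases of the RABA type, related to animal Rab11, act between the trans-Golgi network and the plasma membrane. The pair of RABA members moved in opposite directions. RABA1f-like (TRINITY_DN11410_c0_g1_i3.p1) rose in susceptible plants by 1.18 ± 0.24, from a median of 0.539 CPM (0.336 to 0.909) to 1.16 CPM (0.493 to 1.80), with overlap in both populations. Its value was 1.03 ± 0.35 in R1, where the groups did not overlap, and −0.05 ± 0.34 in R2. Between sprayed classes it was −0.84 ± 0.24, not called here. In the authors' deposited table it is the only member listed for that comparison, at −0.83 on the log2 scale.

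RABA5c (TRINITY_DN4412_c0_g2_i1.p1) fell in resistant plants by 1.05 ± 0.23. In R1 it stood at 7.96, 3.39, 7.43 and 4.98 CPM untreated and at 1.73, 3.05, 2.51 and 2.29 CPM sprayed. In R2 it stood at 5.75, 7.14, 5.48 and 2.84 CPM untreated and at 2.64, 2.39, 3.01 and 4.25 CPM sprayed. The R1 groups did not overlap, and in R2 untreated replicate 4 lay among the sprayed libraries. In susceptible plants its value was −0.58 ± 0.23, not called, and the S1 groups overlapped while the S2 groups did not.

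Syntaxin 32 (TRINITY_DN9552_c0_g1_i6.p1), a SNARE of the Golgi, rose by 0.88 ± 0.20 in susceptible plants, from a median of 0.702 to 1.46 CPM, and had a value of 0.25 ± 0.20, not called, in resistant plants. Syntaxin-81 (TRINITY_DN13974_c0_g1_i6.p1), a SNARE of the endoplasmic reticulum, rose by 0.53 ± 0.14 in resistant plants, from a median of 1.55 to 2.19 CPM, and had a value of 0.25 ± 0.14, not called, in susceptible plants. The difference between the responses of the classes was −0.63 ± 0.28 for syntaxin 32 and 0.28 ± 0.19 for syntaxin-81, and no test of it is given, since it is made of the comparisons that chose the members.

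Coatomer subunit alpha-3 (TRINITY_DN86_c0_g1_i18.p1), of the COPI coat that returns vesicles from the Golgi to the endoplasmic reticulum, rose by 0.41 ± 0.13 in susceptible plants, with medians of 12.8 CPM untreated and 19.0 CPM sprayed. Its value was −0.07 ± 0.13 in resistant plants. The COPII coat, which buds vesicles from the endoplasmic reticulum toward the Golgi, lies outside the member rule and was read from a list of 5 frames. Of these, 4 rose in susceptible plants: a sec31-like frame by 0.99 ± 0.24, SEC13 homolog B by 0.84 ± 0.14, a sec24 frame by 0.46 ± 0.14 and SEC23-1 by 0.31 ± 0.11. In resistant plants the 5 values ran from −0.07 to 0.54 and were not called. In untreated plants SEC13 homolog B and SEC23-1 were higher in the resistant class, by 0.59 ± 0.14 and 0.49 ± 0.11. The 4 of 5 that rose in susceptible plants stand beside 42.5% of described and 13.5% of all tested frames. Between untreated classes 8.73% of described and 2.76% of all tested frames were higher in the resistant class. The COPII frames were described because the authors had listed them, so nothing is read from these counts. With library totals 5 of 5 rose in susceptible plants and 5 of 5 were higher in untreated resistant plants. Without untreated R1 replicate 1, 0 of 5 were called between untreated classes and 1 rose in resistant plants.

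ADP-ribosylation factor-related protein 1 (TRINITY_DN22739_c0_g1_i3.p1), a small GTPase known from the trans-Golgi of yeast and mammals, fell by 1.09 ± 0.33 in susceptible plants. In S1 it stood at 0.238, 0.160, 0.201 and 0.299 CPM untreated and at 0.205, 0.104, 0.243 and 0.164 CPM sprayed. In S2 it stood at 0.602, 0.256, 0.437 and 0.652 CPM untreated and at 0.102, 0.170, 0.0592 and 0.203 CPM sprayed. The S1 groups overlapped and the S2 groups did not, and the log2 fold change was −0.32 ± 0.46 in S1 and −1.85 ± 0.47 in S2. The response of S2 minus that of S1 was −1.52 ± 0.65, with a 95% interval from −2.87 to −0.18 and an adjusted p of 0.551 in edgeR's quasi-likelihood test. Its value was 0.25 ± 0.32 in resistant plants.

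AGD14 (TRINITY_DN4821_c0_g1_i12.p1), which turns off ARF GTPases, fell by 0.34 ± 0.08 in susceptible plants, from a median of 12.5 to 9.38 CPM. Its S1 groups did not overlap and its S2 groups did. Its value in resistant plants was −0.13 ± 0.08. Vesicle-associated protein 1-3-like (TRINITY_DN13659_c0_g1_i3.p2), of a family that links the endoplasmic reticulum to other membranes, fell by 0.62 ± 0.22 in susceptible and by 0.93 ± 0.22 in resistant plants. In R2 it stood at 2.47, 2.35, 2.37 and 1.21 CPM untreated and at 0.762, 1.00, 0.380 and 0.874 CPM sprayed, without overlap. The R1 groups overlapped, with sprayed replicate 2 at 2.04 CPM and untreated replicate 1 at 1.04 CPM. The response of R2 minus that of R1 was −1.10 ± 0.45, with an adjusted p of 0.815 in edgeR's quasi-likelihood test. The susceptible call was lost without any 1 of 7 susceptible libraries, at −0.63 to −0.52. With library totals in place of TMM, the falls of ADP-ribosylation factor-related protein 1, AGD14 and vesicle-associated protein 1-3-like in susceptible plants were −0.80, −0.03 and −0.32 and were not called.

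**Figure D3:**
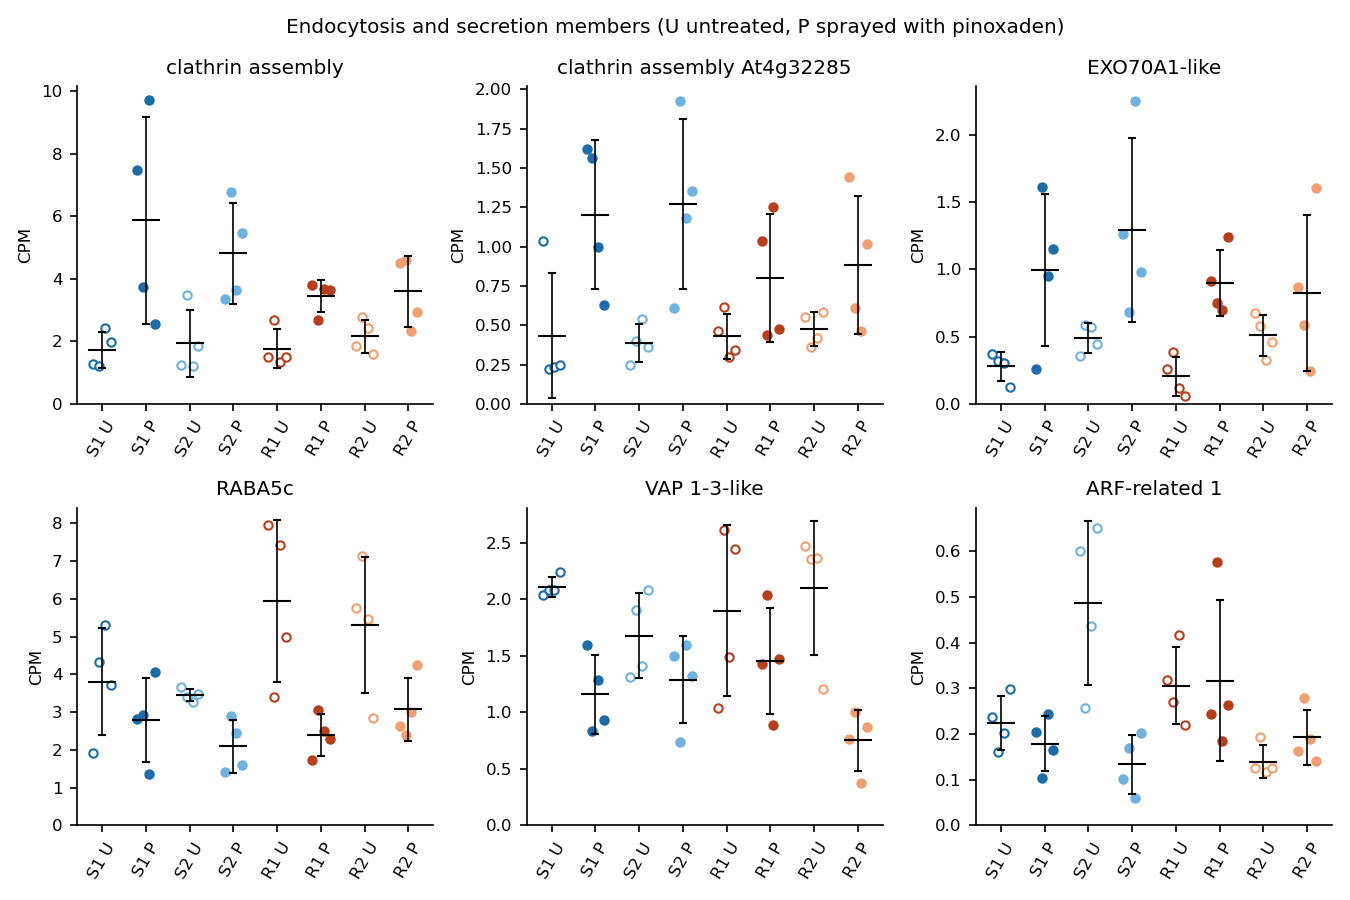
CPM of 2 clathrin assembly members and 4 secretion members in each of the 32 libraries (open points untreated, U; filled points sprayed, P), with the mean and SD of the 4 libraries of a group, on axes that start at 0. EXO70A1-like is without overlap between untreated and sprayed libraries in S2 and R1, and RABA5c lies lower in all 4 sprayed R1 libraries, at 1.73 to 3.05 CPM, than in the untreated ones, at 3.39 to 7.96 CPM.

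The 3 reticulons, which bend the endoplasmic reticulum into tubules, differed from one another. Reticulon-like protein B8 (TRINITY_DN2015_c0_g1_i6.p1) differed between classes and was not called with spraying, reticulon-like protein B9 (TRINITY_DN22625_c0_g2_i3.p1) fell in susceptible plants, and reticulon-like protein B1 (TRINITY_DN1304_c0_g2_i2.p1) was higher in untreated resistant plants.

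Reticulon B8 stood at 3.42, 4.83, 6.14 and 3.34 CPM in untreated S1 and at 5.31, 4.79, 5.72 and 4.54 CPM in untreated S2. It stood at 2.69, 2.27, 2.36 and 3.48 CPM in untreated R1 and at 1.57, 1.77, 2.39 and 1.55 CPM in untreated R2. Among untreated libraries only R1 replicate 4 reached into the susceptible range. The difference between untreated classes was −1.09 ± 0.17, a fold of 2.13, and remained called at −0.87 with library totals. After spraying the difference was −0.68 ± 0.16, and this call was lost without sprayed S1 replicate 3 or sprayed R2 replicate 3, at −0.66 and −0.58. The authors' deposited table lists reticulon B8 between untreated classes and not between sprayed ones. The spray response was −0.07 ± 0.16 in susceptible and 0.34 ± 0.17 in resistant plants, neither of them called.

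In sprayed plants reticulon B8 stood at 2.37, 4.14, 4.54 and 4.58 CPM in R1 and at 2.50, 1.89, 1.85 and 1.89 CPM in R2. Sprayed susceptible libraries ranged from 3.23 to 6.30 CPM. Apart from replicate 1, the sprayed R1 libraries lay in that range, and every sprayed R2 library lay below it. The class difference after spraying was thus seen mainly in R2. Over both treatments R2 was below R1 by −0.75 ± 0.17 on the log2 scale, with a 95% interval from −1.10 to −0.41. This comparison was not used to choose the members, and the adjusted p was 0.0262 in edgeR's quasi-likelihood test. It was the 1 member called of 21, where 0.683% of all tested frames were called. The difference was −0.56 ± 0.24 in untreated and −0.94 ± 0.23 in sprayed plants. The adjusted p lay between 0.00253 with DESeq2 and 0.0777 with limma-voom over the other settings, and rose to between 0.0501 and 0.0623 without any 1 of 10 resistant libraries, with values from −0.74 to −0.68. S2 minus S1 was 0.09 ± 0.16, not called.

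Reticulon B9 fell by 0.52 ± 0.15 in susceptible plants, from a median of 1.90 CPM (1.25 to 2.40) to 1.24 CPM (0.992 to 1.63), with overlap within both populations. With library totals it was −0.23, not called. Its value was 0.07 ± 0.15 in resistant plants. Reticulon B1 stood at 7.50, 2.27, 2.54 and 2.38 CPM in untreated R1 and at 1.85, 1.83, 3.57 and 1.13 CPM in untreated R2, against 0.953 to 2.01 CPM in untreated susceptible libraries. The value of 7.50 CPM came from the R1 library that stood apart. The class difference was 0.95 ± 0.26 with that library and 0.64, not called, without it, and 6 other libraries also ended the call when left out, at 0.98 or less. Without that library 2 members in all were called between untreated classes and 5 in the response of resistant plants.

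**Figure D4:**
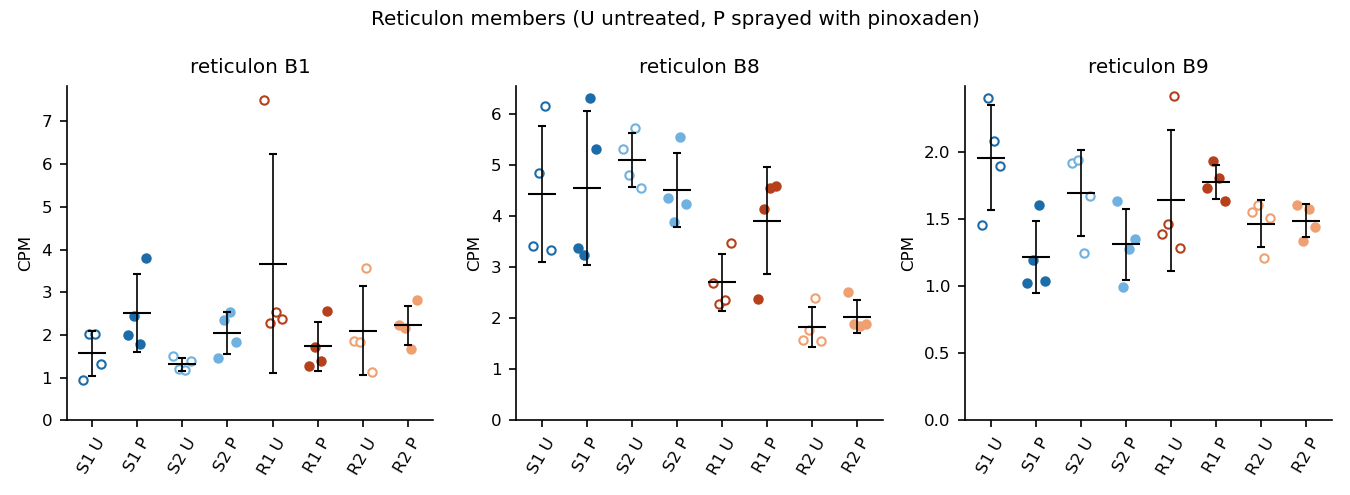
CPM of the 3 reticulon members in each of the 32 libraries (open points untreated, U; filled points sprayed, P), with the mean and SD of the 4 libraries of a group, on axes that start at 0. Reticulon B8 lies at 1.55 to 2.50 CPM in the 8 R2 libraries and at 3.23 CPM or more in the 16 susceptible libraries, and the highest point of reticulon B1 is untreated R1 replicate 1 at 7.50 CPM.

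The comparisons between populations of 1 class were not among those that chose the members. They use the same libraries, so the choice of members may still bear on their spread, which was not tested. Between S2 and S1, averaged over treatments, 0 of 21 members were called in edgeR, with 2 at an unadjusted p under 0.05 (ATG10 and ATG18h-like), and 0 were called by DESeq2 and by limma-voom, where 0.232% of all tested frames were called in edgeR. The members' differences ran from −0.44 for ATG10 to 0.59 for EXO70A1-like. Between R2 and R1 they ran from −0.91 for ADP-ribosylation factor-related protein 1 to 0.59 for EXO70A1-like, with 4 at an unadjusted p under 0.05, and reticulon B8 alone was called. Described frames were called at 0.481% between S2 and S1 and at 0.922% between R2 and R1. ATG10 was lower in R2 than in R1 by −0.49 ± 0.20, with an adjusted p of 0.265 in edgeR, and ADP-ribosylation factor-related protein 1 by −0.91 ± 0.32, with an adjusted p of 0.201 in edgeR. All 21 differences were within 1 log2 unit in both comparisons, and the 95% intervals were within 1 log2 unit for 19 members between S2 and S1 and for 18 between R2 and R1.

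**Figure D5:**
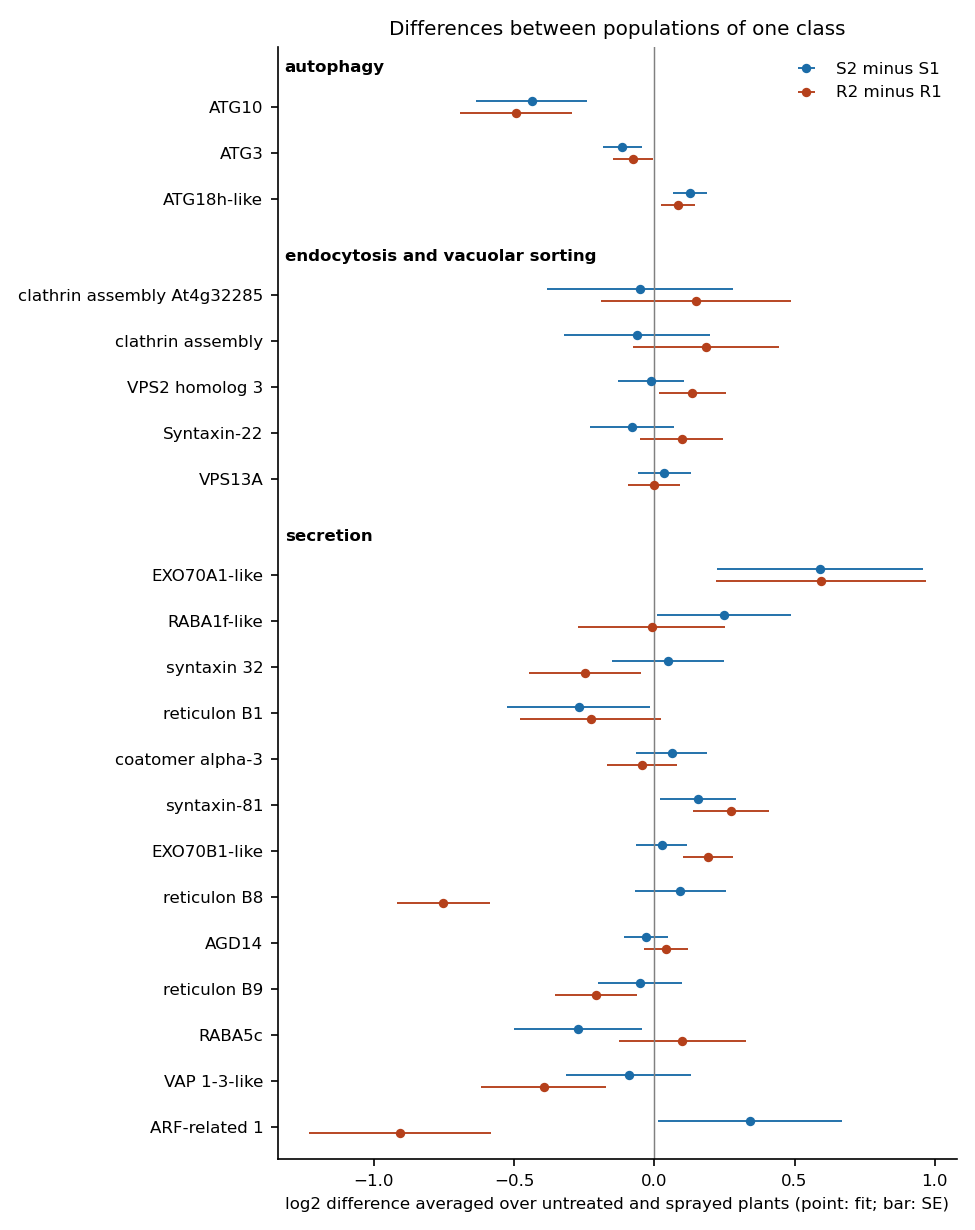
Fitted log2 difference between the 2 populations of a class, averaged over untreated and sprayed plants, for each tested member (points, S2 minus S1 and R2 minus R1), with its standard error (bars), on a linear axis. Reticulon B8 at −0.75 is the only called difference, and the largest in size is ADP-ribosylation factor-related protein 1 at −0.91 between R2 and R1.

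The spray responses of the populations of 1 class were also compared. In edgeR 0 of 21 members were called for S2 against S1, with 2 at an unadjusted p under 0.05, and 0 for R2 against R1, with 4 at an unadjusted p under 0.05. For S2 against S1 the 2 were ADP-ribosylation factor-related protein 1 at −1.52 ± 0.65 and ATG3 at 0.29 ± 0.14. DESeq2 and limma-voom called 0 in both. The backgrounds were 0.028% and 0.00399% of all tested frames, so nearly no frame was called. For R2 against R1 the 4 were ATG10, RABA1f-like at −1.09 ± 0.49, vesicle-associated protein 1-3-like at −1.10 ± 0.45 and reticulon B1 at 1.15 ± 0.50. Without untreated R1 replicate 1 the value of reticulon B1 was 0.53 ± 0.43, with an unadjusted p of 0.231 in edgeR. Intervals were wide: 95% intervals lay within 1 log2 unit for 11 members in the susceptible and 10 in the resistant comparison.

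The response of resistant plants was nearer to 0 than that of susceptible plants in 16 of 21 members. The median of the difference, resistant minus susceptible, was −0.20 on the log2 scale over the members, −0.02 over all tested and −0.10 over described frames. The widest differences were 1.33 ± 0.46 for ADP-ribosylation factor-related protein 1 and −1.15 ± 0.36 for reticulon B1, followed by −0.81 ± 0.28 for ATG10. Without untreated R1 replicate 1 the value of reticulon B1 was −0.85 ± 0.30. Most members were listed for their response in susceptible plants (17 of 22, against 8 in resistant plants), so this order is a description of the choice of members and not a test.

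A wider list of 27 described frames of the same traffic routes (adaptor and COPII coats, sorting nexins, Golgi proteins, the autophagy frames above and others), 26 of them tested, gave 12 that rose and 8 that fell in susceptible plants, and 0 and 3 in resistant plants. In untreated plants 3 were higher and 2 lower in the resistant class, and 0 differed in sprayed plants. With library totals in place of TMM the split became 15 and 1 in the response of susceptible plants and 15 and 0 between untreated classes. With TMM, 79.2% of described frames were called in the response of susceptible plants and 29.1% in that of resistant plants. Between classes the shares were 12.8% in untreated and 7.02% in sprayed plants. Over all tested frames the 4 shares were 25.4%, 9.14%, 4.12% and 2.3%. The frames of the wider list too were described only because the authors had listed them, so nothing is read from the counts.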

How the data were processed

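RNA of leaves was sequenced in 32 libraries, 4 for each of 8 groups. The authors deposited raw counts of 39590 open reading frames on 29344 assembled contigs, with no normalization. The authors' second deposited table gives, for 4 comparisons, a log2 fold change and an adjusted p-value of each frame below 0.05, with its description. Per the submitters' processing notes, STAR 2.5.2b and FastQC 0.11.5 are named, as are R 3.6.1 and DESeq2 1.24.0; settings of assembly, alignment and counting are not given in the sources used here, so frames of similar sequence may share reads. No sequences or positions of the contigs were used here.

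The filterByExpr function of edgeR 4.0.16, run in R 4.3.3, left 25036 frames, 21 of the 22 members among them, and 3818 frames had no count in any library. Totals of 26213780 to 46062806 counts were scaled by TMM. A single edgeR quasi-likelihood fit of 8 group means, with robust dispersions, took in all 32 libraries (24 residual degrees of freedom). Contrasts gave populations equal weight, and the Benjamini-Hochberg adjustment of p ran over the 25036 frames. The fit was also run on counts simulated from its own dispersions, with known changes planted in the response of susceptible plants alone. No result on the members rests on that run. Alternatives were edgeR's RLE factors, library totals alone, no filter, a filter of 1 CPM in 4 libraries, DESeq2 1.42.0, limma-voom (limma 3.58.1), the replicate number as a block, and leaving out each library. The p-values measure the spread between replicates of these 4 populations.

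The members, the word lists and the tests were chosen with earlier results of these data known. The naming rule took every autophagy member and, elsewhere, the 3 called members of lowest p per direction and comparison, at a mean of at least 1 CPM and the same sign in both populations. The remaining members, the 4 tested ones with under 1 CPM on average included, are named because the list is short, after their values were seen. Words for related frames were searched in the name after the accession.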

Additional observations from a re-analysis of the deposited data

Results flagged for a closer look

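Within each group of 4 libraries, a library was singled out when its gap to the nearest of the others took more of the group's range than Dixon's 95% critical value for 4 samples. This was met in 17 of 176 groups of a member's CPM values, where chance gives about 1 in 20. Untreated R1 replicate 1, the library with the lowest share of leaf counts, supplied 3 of the 17: reticulon B1 at 7.50 CPM, vacuolar protein sorting-associated protein 2 homolog 2-like at 1.13 CPM and ATG18h-like at 11.5 CPM.

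In R1 the putative clathrin assembly protein stood apart at 2.69 CPM in untreated replicate 2 and at 2.68 CPM in sprayed replicate 2. Reticulon B9 did so at 2.42 CPM in untreated R1 replicate 3, and coatomer subunit alpha-3 at 17.3 CPM in sprayed R1 replicate 4. In R2, sprayed replicate 1 was high for RABA1f-like at 0.816 CPM and for reticulon B8 at 2.50 CPM. ATG18h-like was high at 14.5 CPM in sprayed R2 replicate 3. Vesicle-associated protein 1-3-like was low at 1.21 CPM in untreated R2 replicate 4, and ADP-ribosylation factor-related protein 1 was high at 0.194 CPM in untreated R2 replicate 2.

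In susceptible plants, untreated S2 replicate 2 was low for EXO70B1-like at 13.3 CPM and high for coatomer subunit alpha-3 at 18.7 CPM. The probable clathrin assembly protein At4g32285 was high at 1.03 CPM in untreated S1 replicate 1. Vacuolar protein sorting-associated protein 2 homolog 2-like stood at 0.283 CPM in sprayed S2 replicate 2 and at 0.0273 CPM in untreated S2 replicate 1, the only untreated S2 library with a count. With the rest of that group at 0, any count in it would have met the criterion.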

How the results depend on the processing

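In the response of susceptible plants 16 members were called, and between 13 and 17 under the alternatives that kept all libraries. Counts of called members moved by over 1.5 times in these settings. For sprayed classes, where 1 was called, library totals gave 2, limma-voom 2, the replicate block 2 and DESeq2 3. With limma-voom the response of resistant plants gave 5 in place of 8, and R2 against R1 0 in place of 1. Untreated classes gave 2 in place of 4 with limma-voom and with the replicate block. The direction between untreated classes moved with library totals, where 4 were higher and 1 lower in the resistant class, in place of 1 higher and 3 lower. With library totals the fall of vacuolar protein sorting-associated protein 13A in susceptible plants turned to 0.0492. The causes were not tested, apart from the scaling itself. With library totals the median of all frames stood at 0.30 in the response of susceptible plants and at 0.21 between untreated classes (−0.01 with TMM in the first), but at 0.01 in the response of resistant plants and at −0.09 between sprayed classes.

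Leaving out 1 library at a time gave 14 to 18 called members in the response of susceptible plants, 4 to 8 in that of resistant plants, 2 to 5 between untreated classes and 0 to 3 between sprayed classes. It gave 0 to 1 for R2 against R1 and 0 for S2 against S1 and for both differences between responses.

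Replicate numbers did not pair the libraries: of 112 pairs with the same number, 1 had a correlation of deviations over 0.1, with a mean of −0.0063. With the replicate block, 15 members were called in the response of susceptible plants, 7 in that of resistant plants, 2 between untreated classes, 2 between sprayed classes, 1 for R2 against R1, and 0 in the other comparisons.

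Depth limits the rarest members: ADP-ribosylation factor-related protein 1 and vacuolar protein sorting-associated protein 2 homolog 2-like lay mostly under 0.5 CPM. Without the filter on low counts the latter entered the fit and the response of resistant plants had 6 called members.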
